A study of Mus musculus with 8 samples.

Results

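The 47 genes described here encode guidance cues and their receptors of the Eph, ephrin, Slit, Robo, netrin, Unc5, class 3 semaphorin, plexin and neuropilin families. They were chosen by name, through the RefSeq accession of their probes, out of 22911 genes on the array, and 45 of them were among the 16013 genes whose signal allowed a test. The mutant samples were whole mouse kidneys of embryonic day 14.5 that carried a conditional Mdm4 mutation with Cre expressed from a Hoxb7 transgene. They were compared with wild-type kidneys of the same day, for which the labels name no transgene. There were 4 mutant and 4 wild-type RNAs in 4 pairs, and each pair was hybridised to 2 two-colour Agilent arrays with the dyes exchanged, so that n = 4 pairs on 8 arrays. Mdm4 is an inhibitor of p53, and the Hoxb7 promoter drives Cre in the ureteric epithelium, from which the collecting ducts form, so that most kidney cells lie outside the targeted lineage.

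Axon guidance genes encode secreted or membrane-bound cues, which growing axons read through receptors on their surface, and cells outside the nervous system use the same pairs of cue and receptor. Slit proteins bind Robo receptors, ephrins bind Eph receptor kinases, netrins bind receptors that include the Unc5 family, and class 3 semaphorins mostly act through neuropilins joined to plexins. In the kidney, Slit2 and Robo2 are known for keeping the outgrowth of the ureteric bud to a single site, and class 3 semaphorins, netrins and Ephs have been studied in branching, vessel growth and the insertion of the ducts into the bladder.

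The arrays had 60.7% to 70.2% of their spots well above background in a channel and 0 saturated spots, and their number limits the precision. All 8 arrays lay on 1 slide. Mdm4 had log2 ratios of mutant over wild type of -0.03, -0.06, -0.28 and -0.35 in pairs 1 to 4 (mean -0.18 ± 0.07, SE, n = 4, limma adjusted p = 0.471). The dye orientations of Mdm4 differed, with a mean of -0.00062 where the mutant RNA was labelled in Cy5 and -0.36 where it was labelled in Cy3. Here and below, SE is limma's moderated standard error, which borrows variance from all genes. It can be larger or smaller than the standard error of a gene's own pairs. Where the Mdm4 probe lies relative to the removed exons is unknown here, so its ratios do not check the labels. The ratios of the dye-swapped arrays of a pair correlated across genes at 0.54, 0.23, 0.34 and 0.60 in pairs 1 to 4. Y-linked transcripts differed within the pairs, with mean log2 ratios of 2.76, 1.31, -1.64 and 2.83. In RNA of whole kidneys, fewer cells of a type and less RNA per cell cannot be told apart.

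No guidance gene passed limma's test at an adjusted p of 0.05, and neither did any other gene, so that 0 of 45 guidance genes and 0% of the 16013 genes tested were called. Their smallest adjusted p was 0.349, for Sema3e. Of the 45 genes, 30 had a mean log2 ratio above 0, as had 53.9% of all genes tested, and 15 had a mean below 0. Their median log2 ratio was 0.03, with a range of -0.59 to 0.44, beside a median of 0.01 over all genes tested. A mean above 0.3 was found for 3 genes, Slit2, Sema3e and Epha3, beside 2.61% of all genes, and a mean below -0.3 for 1 gene, Epha1, beside 2.12%. The median was 0.01 in the 19 ligand genes and 0.03 in the 26 receptor genes tested. An unadjusted p under 0.05 was found for 4 genes that were higher in the mutant (Slit2, Sema3e, Epha3 and Epha7), beside 7.01% of all genes, and for 2 that were lower (Sema3f and Ephb2), beside 3.6%, which makes 6 genes in either direction, beside 10.6%. Median centring in place of loess moved the median of all genes to 0.14 and that of the guidance genes to 0.20, so that counts above and below 0 depend on the scaling.

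**Figure D1:**
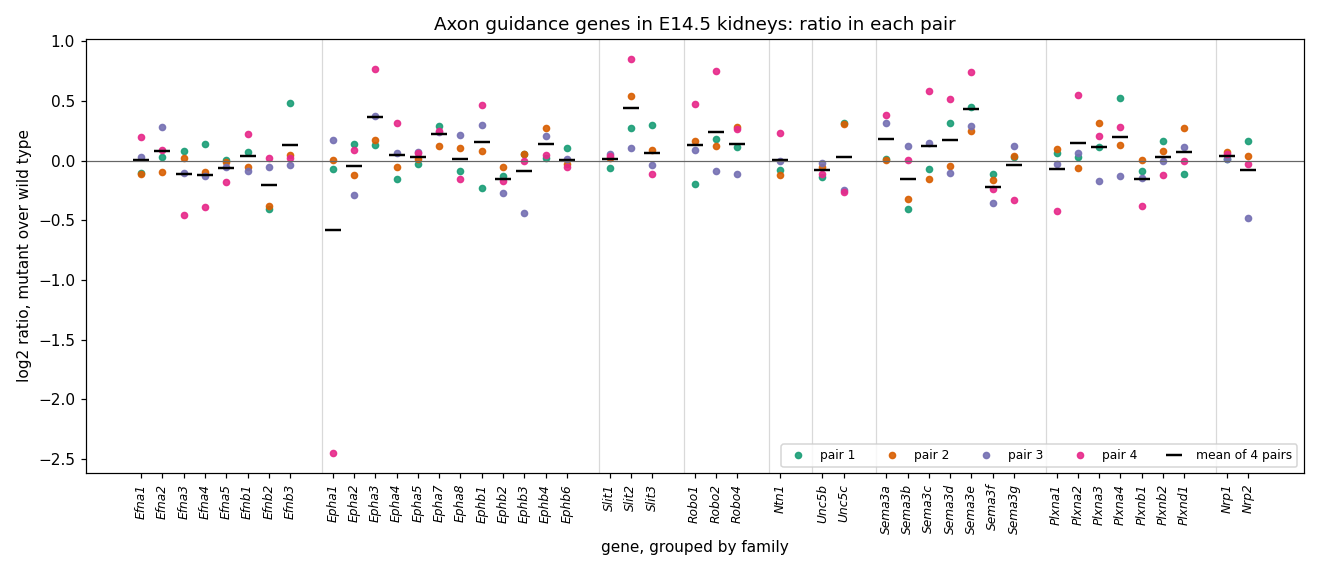
Log2 ratio of mutant over wild type (y axis) of the 45 guidance genes tested, in order of family (x axis). Each point is 1 pair (mean of its 2 dye-swapped arrays) and each black bar the mean of 4 pairs. Most means lie close to 0, Slit2 and Sema3e have the highest means at 0.44 and 0.43, and the mean of Epha1 at -0.59 rests on pair 4.

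The sign of a gene across pairs and arrays shows how far its ratio depends on single measurements. In all 4 pairs 7 genes were higher in the mutant, beside 12.1% of all genes tested. They were Slit2, Sema3e, Sema3a, Epha3, Epha7 and Nrp1 with Ephb4, which was named after its values were seen. Lower in all 4 pairs were 3 genes, Ephb2, Unc5b and Sema3f, beside 7.84% of all genes. These signs are those of the brightest probe of a gene. Of the genes named here, all but Sema3e had a second kept probe. None of these second probes had the same sign in all 4 pairs. The third brightest Epha7 probe was below 0 in all 4 pairs (-0.11, -0.12, -0.31 and -0.28), unlike its brightest one. The fourth was above 0 in all 4 (0.08, 0.01, 0.21 and 0.30). On each of the 8 arrays the ratio was above 0 for 4 genes, Slit2, Sema3e, Epha3 and Epha7, which is 8.89% of the 45, beside 3.35% of all genes. It was below 0 on all 8 arrays for 0 genes, beside 1.31% of all genes.

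**Figure D2:**
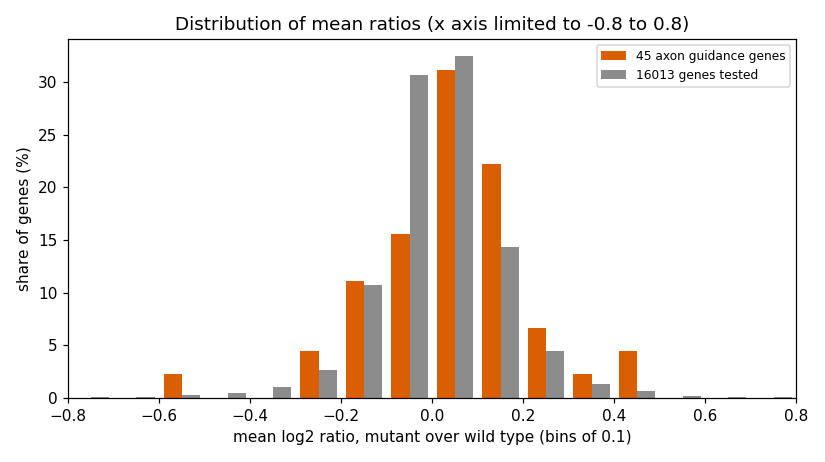
Share of genes (y axis, percent) by mean log2 ratio of mutant over wild type (x axis, bins of 0.1, limited to -0.8 to 0.8) for the 45 guidance genes tested and for all 16013 genes tested. Both distributions centre close to 0, with medians of 0.03 and 0.01.

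Slit2 encodes a secreted ligand of Robo receptors that restricts the budding of the ureteric epithelium. It had normalised log2 intensities of 12.68, 12.79, 12.73 and 13.55 in the mutant kidneys of pairs 1 to 4, against 12.41, 12.25, 12.62 and 12.69 in the wild-type kidneys. Each mutant kidney was above its own wild-type partner, the mutant of pair 4 stood highest, and the groups overlapped by little, because the lowest mutant level lay just under the highest wild-type level. The log2 ratios were 0.27, 0.54, 0.11 and 0.85, with a mean of 0.44 ± 0.12 (SE, n = 4), or 1.36-fold, and a limma adjusted p of 0.403. On single arrays its ratio ran from 0.04 to 1.09. The mean was 0.30 without pair 4 and also 0.30 with Y-linked transcripts as a covariate.

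The promoter window of Slit2 is shown because this gene had the highest mean ratio of the 45. It covers 250 bases before and 50 bases after the start of the gene, from RefSeq on GRCm38.p6 at chr5:47982905-47983204, plus strand. Capitals mark the GC box GGGCGG, a motif bound by Sp-family factors, read on either strand. Capitals also mark the TATA motif, spelled TATAAA and read on either strand, which cannot overlap a GC box.
Slit2: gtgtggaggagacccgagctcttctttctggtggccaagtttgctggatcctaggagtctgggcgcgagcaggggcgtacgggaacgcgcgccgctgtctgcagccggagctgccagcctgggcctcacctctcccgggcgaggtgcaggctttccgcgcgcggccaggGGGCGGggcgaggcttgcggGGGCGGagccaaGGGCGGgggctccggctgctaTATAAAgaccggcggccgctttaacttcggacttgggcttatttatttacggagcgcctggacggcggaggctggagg
The window holds 3 GC boxes and 1 TATA motif.

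Robo2 encodes the receptor through which Slit2 acts on the kidney field. Its levels were 11.84, 12.11, 12.08 and 12.91 in the mutant kidneys, against 11.66, 11.99, 12.17 and 12.15 in the wild-type kidneys. The mutant of pair 4 stood apart from the other 7 kidneys, which overlapped. The log2 ratios were 0.18, 0.12, -0.09 and 0.75 (mean 0.24 ± 0.14, SE, n = 4, limma adjusted p = 0.560). The mean was 0.07 without pair 4, 0.05 over both of its probes and 0.07 with Y-linked transcripts as a covariate. The other Slit and Robo genes, namely Slit1 and Slit3 and the receptor genes Robo1 and Robo4, had means from 0.01 to 0.14. On their brightest probes all 6 tested genes of both families had means above 0, beside 53.9% of all genes tested. Their limma adjusted p ran from 0.403 to 0.946, and the mean of Slit1 (0.01) lay close to the median of all genes tested. The second probes of Slit2, Robo1 and Robo2 had means of 0.02, -0.06 and -0.15.

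Sema3e encodes a semaphorin that binds Plexin D1 without a neuropilin and repels growing vessels. Its levels were 7.91, 7.70, 7.72 and 7.99 in the mutant kidneys, against 7.45, 7.45, 7.43 and 7.25 in the wild-type kidneys. The groups did not overlap, a pattern found higher in the mutant for 2 of the 45 genes, Sema3e and Epha7, and for 3.3% of all genes tested. Its log2 ratios were 0.45, 0.25, 0.29 and 0.74 (mean 0.43 ± 0.09, SE, n = 4, 1.35-fold), and the limma adjusted p of 0.349 was the smallest of the 45. Its signal was low, although well above background in all channels, and the size of its ratio changed with the processing. It was 0.59 with no background correction and 0.86 from the log ratios of the authors' deposited table.

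Sema3f encodes a semaphorin that signals mainly through Neuropilin 2. Its levels were 14.20, 14.08, 14.08 and 13.98 in the mutant kidneys, against 14.31, 14.25, 14.44 and 14.22 in the wild-type kidneys. All mutant levels lay below all wild-type levels, and Sema3f was the 1 gene of the 45 with this pattern, beside 1.52% of all genes tested. The log2 ratios were -0.11, -0.17, -0.36 and -0.24 (mean -0.22 ± 0.06, SE, n = 4, limma adjusted p = 0.406). The dye orientations differed, with a mean of -0.43 where the mutant RNA was labelled in Cy5 and -0.0073 where it was labelled in Cy3. Its second probe (mean -0.19) had -0.05 with mutant RNA in Cy5 and -0.32 with it in Cy3. In pair 1 the second probe was at 0.05, so that its sign differed from that of the brightest one. With median centring in place of loess the mean of the brightest probe was -0.04.

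**Figure D3:**
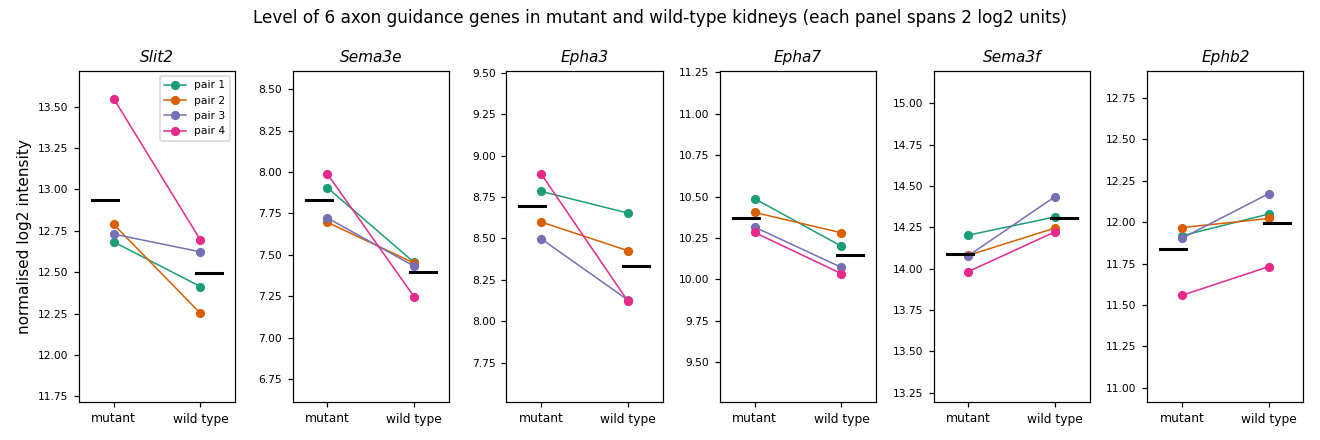
Normalised log2 intensity (y axis) of 6 guidance genes in mutant and wild-type kidneys, with 1 line per pair, black bars for the group means and every panel spanning 2 log2 units. Sema3e and Epha7 levels are higher in all mutant than in all wild-type kidneys and Sema3f levels lower, whereas the groups overlap for Slit2, Epha3 and Ephb2. With median centring the mean ratio of Ephb2 turns to 0.01.

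Sema3a, which encodes a chemorepellent of axons and endothelial cells, had log2 ratios of 0.01, 0.0027, 0.31 and 0.38, with a mean of 0.18 ± 0.09 (SE, n = 4). Its ratio was thus close to 0 in pairs 1 and 2. The second Sema3a probe had -0.21, -0.03, 0.40 and 0.33 (mean 0.12), and so was below 0 in pairs 1 and 2. Sema3c, which encodes a semaphorin needed for patterning of the heart outflow tract, had -0.07, -0.15, 0.15 and 0.58, with a mean of 0.13 ± 0.13 that turned to -0.03 without pair 4. Sema3b, a semaphorin gene known as a tumour suppressor in humans, had -0.41, -0.32, 0.12 and 0.0029, with a mean of -0.15 ± 0.10 that turned to 0.01 with median centring. The pairs of Sema3b and Sema3c went both ways. The other semaphorin genes, Sema3d and Sema3g, had means of 0.17 and -0.04. Limma adjusted p of the 7 semaphorin genes ran from 0.349 to 0.896.

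On their brightest probes the 2 neuropilin and 7 plexin genes, which encode semaphorin receptors, had means from -0.15 to 0.20. Nrp1, which encodes a co-receptor of semaphorins and of vascular endothelial growth factor, had levels of 14.23, 14.21, 14.23 and 14.21 in the mutant kidneys, against 14.21, 14.14, 14.22 and 14.15 in the wild-type kidneys. Its log2 ratios of 0.01, 0.07, 0.0098 and 0.05 differed little from each other. Their mean was 0.04 ± 0.05 (moderated SE, n = 4). Nrp2, the gene of the co-receptor that Sema3f uses, had 0.17, 0.04, -0.48 and -0.03, with a mean of -0.08 ± 0.11 on its brightest probe that turned to 0.06 without pair 3. Plxnd1, the Sema3e receptor gene, had -0.11, 0.27, 0.11 and -0.0054 (mean 0.07 ± 0.08), and without pair 2 its mean was -0.00082. Plxnb2, whose product has been studied in ureteric branching, had 0.16, 0.08, -0.0064 and -0.12 (mean 0.03 ± 0.07), and without pair 1 its mean was -0.01. Plxnb1, a receptor gene for class 4 semaphorins, had -0.09, 0.0088, -0.14 and -0.38 (mean -0.15 ± 0.08), which became 0.02 with median centring. None of these means stood apart from the spread between pairs. The other plexin genes, Plxna1 to Plxna4, had means from -0.07 to 0.20, and limma adjusted p of the 7 plexin genes ran from 0.534 to 0.880.

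Among the 13 Eph receptor genes, 12 were tested, of which 8 had means above 0, beside 53.9% of all genes tested, and 4 below. Epha3, which encodes a receptor kinase of mesenchymal cells, had levels of 8.78, 8.60, 8.498 and 8.89 in the mutant kidneys, against 8.65, 8.43, 8.13 and 8.12 in the wild-type kidneys. The mutant kidney was the higher one in each pair, and the groups overlapped because the wild-type kidneys of pair 1 were above the mutant kidneys of pairs 2 and 3. The log2 ratios were 0.13, 0.17, 0.37 and 0.77 (mean 0.36 ± 0.11, SE, n = 4, 1.28-fold, limma adjusted p = 0.424). Both dye orientations gave 0.36. Without pair 4 the mean was 0.23. The second Epha3 probe had log2 ratios of -0.10, 0.17, 0.37 and 0.19, with a mean of 0.16, so that pair 1 had opposite signs on the 2 probes.

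Epha7, whose product binds ephrin A ligands, had levels of 10.49, 10.40, 10.32 and 10.28 in the mutant kidneys, against 10.20, 10.28, 10.07 and 10.03 in the wild-type kidneys. The groups did not overlap, although the lowest mutant level lay just above the highest wild-type level, and on 1 array the ratio was 0.0047. The log2 ratios of 0.29, 0.12, 0.24 and 0.25 had a mean of 0.23 ± 0.06 (SE, n = 4, 1.17-fold, limma adjusted p = 0.397). It kept this size without any 1 pair, with means from 0.21 to 0.26, but the mean over its 4 kept probes was 0.05.

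Ephb2 encodes a receptor for ephrin B ligands that takes part in sorting cells at tissue boundaries. Its levels were 11.92, 11.97, 11.90 and 11.56 in the mutant kidneys, against 12.05, 12.02, 12.17 and 11.73 in the wild-type kidneys. The wild-type kidneys of pair 4 lay below the mutant kidneys of the other 3 pairs, so that the groups overlapped. Its pairs had log2 ratios of -0.13, -0.06, -0.27 and -0.17 (mean -0.16 ± 0.06, SE, n = 4, limma adjusted p = 0.452), and with median centring the mean was 0.01. The second Ephb2 probe had log2 ratios of 0.09, -0.47, 0.10 and -0.49, with a mean of -0.19. Its sign thus differed from that of the brightest probe in pairs 1 and 3.

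Epha1, a receptor gene expressed in many epithelia, had the lowest mean of the 45 genes at -0.59 ± 0.44 (SE, n = 4), and 1 kidney sample set it. Its levels were 9.89, 10.06, 10.01 and 7.27 in the mutant kidneys, against 9.96, 10.06, 9.84 and 9.72 in the wild-type kidneys. The mutant of pair 4 alone was far below the other 7 kidneys. Its log2 ratios were -0.07, 0.0042, 0.17 and -2.45, both arrays of pair 4 gave low ratios (-2.58 and -2.33), and without pair 4 the mean was 0.04. Epha4, a receptor gene that binds ephrins of both classes, had -0.15, -0.05, 0.06 and 0.32 (mean 0.04 ± 0.09), which became -0.05 without pair 4. Epha2, an epithelial receptor gene, had 0.14, -0.12, -0.29 and 0.09 (mean -0.05 ± 0.09), which became 0.12 with median centring and 0.03 without pair 3. The other tested Eph genes had means from -0.09 to 0.15.

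The promoter windows of the other genes that were higher on all 8 arrays are shown for comparison with that of Slit2. Ephb2 is added as a gene that was lower in all 4 pairs on its brightest probe. All these windows come from RefSeq on GRCm38.p6, with the same extent and the same motifs in capitals. Sema3e lies at chr5:14025026-14025325 on the plus strand, Epha3 at chr16:63864126-63864425 on the minus strand, Epha7 at chr4:28812881-28813180 on the plus strand and Ephb2 at chr4:136835963-136836262 on the minus strand.
Sema3e: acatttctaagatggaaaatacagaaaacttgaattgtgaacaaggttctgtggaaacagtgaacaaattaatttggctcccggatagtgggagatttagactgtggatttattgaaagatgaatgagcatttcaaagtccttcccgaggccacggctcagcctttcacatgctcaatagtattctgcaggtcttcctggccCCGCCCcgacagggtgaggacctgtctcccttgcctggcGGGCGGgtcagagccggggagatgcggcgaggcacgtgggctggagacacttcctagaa
Epha3: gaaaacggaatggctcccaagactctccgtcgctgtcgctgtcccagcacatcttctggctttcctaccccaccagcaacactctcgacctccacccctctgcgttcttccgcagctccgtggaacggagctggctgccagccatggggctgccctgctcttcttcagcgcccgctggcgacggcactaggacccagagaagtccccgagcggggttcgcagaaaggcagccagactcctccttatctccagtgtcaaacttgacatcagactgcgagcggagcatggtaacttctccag
Epha7: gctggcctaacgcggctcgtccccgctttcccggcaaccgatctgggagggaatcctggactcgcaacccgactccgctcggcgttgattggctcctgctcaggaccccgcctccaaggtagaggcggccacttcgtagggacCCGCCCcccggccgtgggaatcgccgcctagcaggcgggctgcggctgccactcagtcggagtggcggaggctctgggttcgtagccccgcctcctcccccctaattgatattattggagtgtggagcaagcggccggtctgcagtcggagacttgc
Ephb2: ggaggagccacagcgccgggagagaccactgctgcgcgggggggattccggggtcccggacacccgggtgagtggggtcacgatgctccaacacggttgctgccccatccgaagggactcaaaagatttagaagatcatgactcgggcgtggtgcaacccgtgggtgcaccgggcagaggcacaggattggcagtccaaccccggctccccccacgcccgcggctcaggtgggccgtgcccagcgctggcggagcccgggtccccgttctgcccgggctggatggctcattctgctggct
The windows hold 2 GC boxes for Sema3e, 1 for Epha7 and 0 for Epha3 and Ephb2, and none of these 4 holds the TATA motif. Slit2, Sema3e and Epha7 thus have a GC box in this window, and Epha3 and Ephb2 have none.

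Windows were found for 40 of the 47 guidance genes, 46 windows in all, since some genes have several starts. A GC box was present in 71.7% of these windows, beside 35.7% of all 32851 windows in the table. The TATA motif was present in 4.35%, those of Slit2 and Efnb2, beside 13.6% of all windows. A pair of p53 core motifs, each spelled CNNG with A or T at both N and set 6 bases apart, was present in 0 of the 46 windows and in 7.22% of all windows. The guidance gene windows were also richer in G and C, with a median of 64.7% beside 52.7%, and held a median of 21 CG dinucleotides beside 7. A match is a description of these letters on both strands, and its absence says only that they are not in this window.

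The 8 ephrin genes, ligands of the Eph receptors, had means from -0.21 to 0.13. Of these 4 were above 0, beside 53.9% of all genes tested, and 4 below. Efnb2, which encodes a transmembrane ephrin of arteries and early nephrons, had levels of 12.27, 12.29, 12.22 and 12.50 in the mutant kidneys, against 12.68, 12.67, 12.28 and 12.48 in the wild-type kidneys. The mutant levels lay clearly below their partners in pairs 1 and 2 only. Log2 ratios of -0.41, -0.38, -0.06 and 0.02 gave a mean of -0.21 ± 0.09 (SE, n = 4, limma adjusted p = 0.494), and with the mutant RNA in Cy3 alone the mean was 0.05. Limma adjusted p of the 8 ephrin genes ran from 0.494 to 0.987. On the brightest probe 0 of the 8 had the same sign in all 4 pairs. Of all genes tested, 12.1% were higher and 7.84% lower in all 4 pairs. The second Efna5 probe was above 0 in all 4 pairs (0.03, 0.16, 0.17 and 0.05) and the third below 0 (-0.09, -0.15, -0.33 and -0.08).

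Ntn1 encodes netrin 1, a cue for axons and for branching epithelia. Its levels were 10.54, 10.54, 10.64 and 10.33 in the mutant kidneys, against 10.62, 10.66, 10.65 and 10.10 in the wild-type kidneys, and the groups overlapped. Its log2 ratios were -0.08, -0.12, -0.0057 and 0.23 (mean 0.0060 ± 0.07, SE, n = 4), and its mean was -0.07 without pair 4. Unc5b, the gene of a netrin receptor of vessels that is also known to trigger cell death when no ligand is bound, had -0.14, -0.06, -0.02 and -0.11 (mean -0.08 ± 0.05, limma adjusted p = 0.606). The mean of Unc5b became 0.09 with median centring. Its second probe had -0.40, -0.33, 0.32 and 0.25 in the same order of pairs (mean -0.04). Ntn4, the gene of a netrin of basement membranes, and Epha6 were not tested. Ntn4 was well above background in 5 of 8 mutant and 4 of 8 wild-type channels, with a log2 ratio of -0.0050 without the filter. Epha6 was well above background in 3 of 8 mutant and 2 of 8 wild-type channels, with a log2 ratio of 0.07.

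Of the 47 genes, Epha2, Unc5b, Sema3b and Sema3f have been described as p53 targets in human cells. In these kidneys 0 of the 4 had a mean above 0 on the brightest probe, beside 53.9% of all genes tested. The median log2 ratio of the 4 was -0.12, with a range of -0.22 to -0.05. With median centring Epha2, Unc5b and Sema3b had means of 0.12, 0.09 and 0.01, and that of Sema3f stayed below 0. For comparison, 5 p53 targets were read, namely the cell cycle inhibitor gene Cdkn1a, Ccng1, Eda2r, Gdf15 and Pmaip1. Of these, 5 were higher in the mutant on all 8 arrays, beside 3.35% of all genes tested. Their means ran from 0.95 to 1.23 (limma adjusted p from 0.114 to 0.232). These 5 genes were chosen with earlier results of these data known, so their count is a description and not a test.

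The dye orientation moved several of the ratios. Of the 45 genes, 20 (44.4%) had means of opposite sign in the 2 dye orientations, beside 51.3% of all genes tested. Nrp2 had means of 0.47 with mutant RNA in Cy5 and -0.62 with it in Cy3. Among genes named after their values were seen, Ephb3 had 0.39 with mutant RNA in Cy5 and -0.56 with it in Cy3, and Unc5c had -0.49 with mutant RNA in Cy5 and 0.55 with it in Cy3. For such genes the mean of the swapped arrays is a small difference between large opposite values. Among the genes above 0 in both orientations were Slit2 (0.51 in Cy5, 0.38 in Cy3), Sema3e (0.43 in both), Epha3 (0.36 in both) and Epha7 (0.16 in Cy5, 0.29 in Cy3). This was not particular to them. Robo2 (0.42 in Cy5, 0.06 in Cy3), Sema3a (0.11 in Cy5, 0.24 in Cy3) and Nrp1 (0.04 in Cy5, 0.03 in Cy3) were also above 0 in both, as were further guidance genes.

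**Figure D4:**
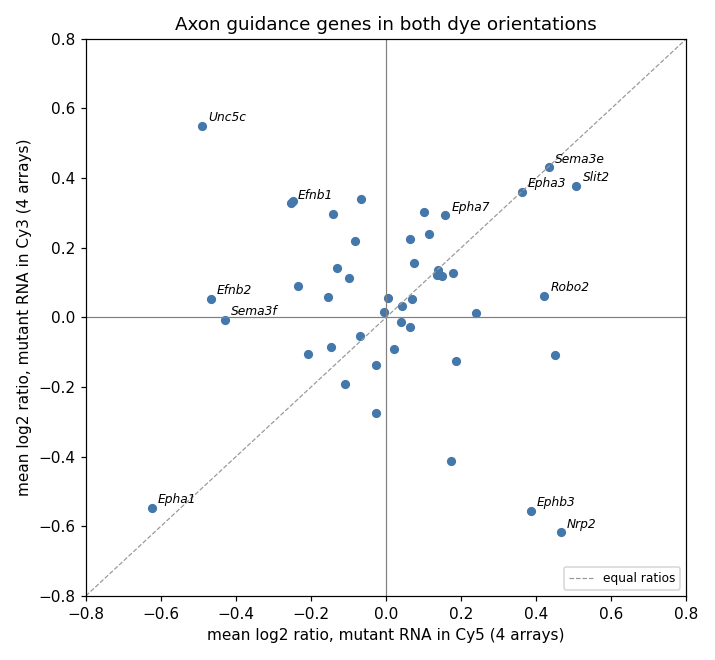
Mean log2 ratio of mutant over wild type of the 45 guidance genes in both dye orientations, with the mutant RNA labelled in Cy5 (x axis, 4 arrays) or in Cy3 (y axis, 4 arrays). Points on the dashed line have equal ratios. Sema3e, Slit2, Epha3 and Epha7 lie in the upper right, whereas Nrp2, Ephb3 and Unc5c have opposite signs.

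The 47 genes had 76 probes, of which 69 were kept, and 19 genes had several kept probes. For 5 of the 19 (26.3%) the brightest and the second brightest probe had opposite signs, beside 36.1% of the 5916 genes on the array with several kept probes. For 3 of the 19 (15.8%), Nrp2, Slit2 and Robo2, the 2 probes differed by over 0.3 on the log2 scale, beside 3.77% of those genes. The other Slit2 probe, for accession NM_001291228, had a mean of 0.02 against 0.44 for the brighter one. The second Robo2 probe had a mean of -0.15, and in pair 4 it gave -0.95 where the brighter probe gave 0.75. The 4 Epha7 probes had means of 0.23, 0.02, -0.21 and 0.15 in order of brightness.

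The second Nrp2 probe, for accession NM_001077403, was higher in the mutant on all 8 arrays, unlike the brightest one. It had levels of 12.12, 12.05, 12.14 and 12.53 in the mutant kidneys, against 11.87, 11.60, 11.98 and 11.91 in the wild-type kidneys. The groups did not overlap, and the log2 ratios were 0.25, 0.45, 0.16 and 0.61 (mean 0.37). On the brightest probes, 3.3% of all genes tested had higher mutant levels without overlap and 3.35% were higher on all 8 arrays. This second probe did not stand for Nrp2 in the fit, so it has no p-value here. The third kept Nrp2 probe had a mean of 0.01. The probes match different transcript accessions of the gene, and which transcripts each one detects was not tested.

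**Figure D5:**
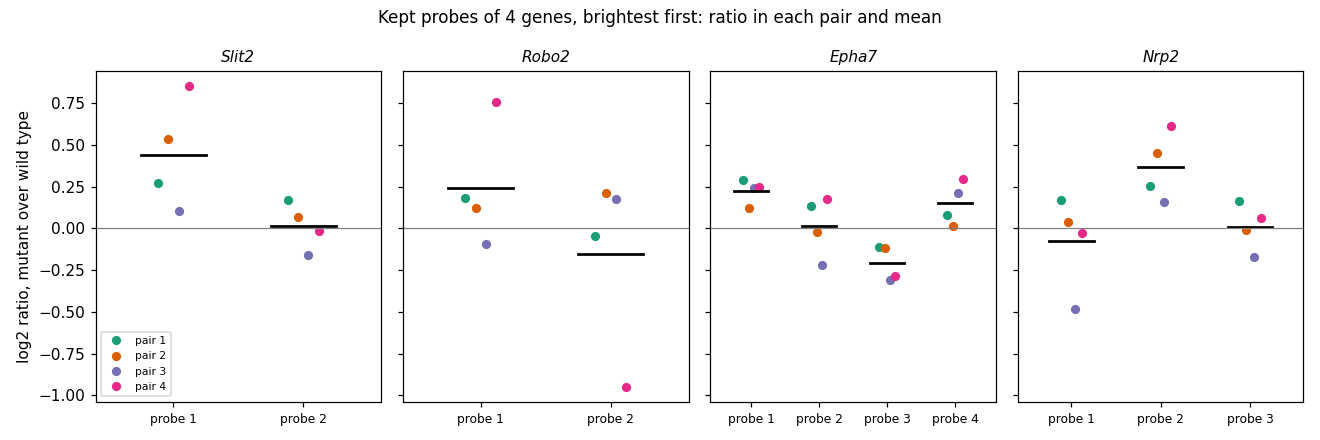
Log2 ratio of mutant over wild type (y axis) for each kept probe of Slit2, Robo2, Epha7 and Nrp2, ordered by brightness (x axis), with 1 point per pair and a black bar for the mean of 4 pairs. The brightest probe of Slit2 has a mean of 0.44 and its second probe 0.02, and the second probe of Nrp2 has 0.37 where the brightest has -0.08.

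Outside the 47 genes, a list of 74 further ligands, receptors and intracellular effectors of the same pathways had 69 genes tested. Of these 38 had means above 0, beside 53.9% of all genes tested, and 31 below. Their median was 0.02, and 0 passed the adjusted threshold, beside 0% of all genes. At an unadjusted p under 0.05 in limma there were 4 higher, beside 7.01% of all genes, and 3 lower, beside 3.6%. No ratio kept its sign over all 8 arrays, whereas 3.35% of all genes were higher and 1.31% lower on all 8. Sema4d, the gene of the Plexin B1 ligand, had -0.46, -0.37, -0.13 and -0.41 (mean -0.34 ± 0.07, SE, n = 4, limma adjusted p = 0.346). It was at -0.70 with mutant RNA in Cy5 and at 0.02 with it in Cy3. Srgap3, a GTPase-activating protein gene downstream of Robo, had a mean of 0.23 ± 0.07, the netrin receptor gene Dscam 0.18 ± 0.06, and Trio, a guanine nucleotide exchange factor gene, 0.26 ± 0.09, with limma adjusted p from 0.425 to 0.440. The dye orientations differed for these as well. With mutant RNA in Cy5 and in Cy3, Srgap3 had 0.36 and 0.10, Dscam 0.02 and 0.34, and Trio 0.46 and 0.05. Trio was at -0.03 in pair 3.

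Marker lists of the kidney's cell types were read beside these ratios, and no single marker passed the adjusted threshold. Over all genes tested, 53.9% had means above 0. Of 12 renal stroma markers 12 had means above 0 (median 0.28), and their summed intensity ran from 209900 to 310700 in mutant and from 174700 to 227600 in wild-type kidneys. Of 8 podocyte markers 8 were above 0 (median 0.32), with sums of 205400 to 234700 in mutant and 178100 to 196200 in wild-type kidneys. Of 11 ureteric bud tip markers 9 were below 0 (median -0.36), with sums of 65160 to 78110 in mutant and 78870 to 87040 in wild-type kidneys. The 12 markers of ureteric trunk and collecting duct were all below 0 (median -0.42, with sums of 94690 to 118300 against 112600 to 162300), although their median was 0.07 in pair 3.

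The endothelial markers, for cells that carry several of these receptors, had a median of 0.01, with sums of 82260 to 87540 in mutant and 84590 to 87180 in wild-type kidneys. The 10 neuron and glia markers tested had a median of 0.05, with sums of 7232 to 9200 in mutant and 6038 to 8395 in wild-type kidneys. Of 8 macrophage markers 8 were above 0 (median 0.26, with sums of 10440 to 14830 in mutant and 9047 to 10870 in wild-type kidneys). Nephron progenitor markers had a median of -0.09 and smooth muscle markers of -0.14. The part of these shifts in the ratios of Slit2, Sema3e, Epha3, Epha7, Sema3f and Ephb2 was not tested.

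Pair 4 held many of the extreme values. The standard deviation of the 45 ratios was 0.51 in pair 4, against 0.20, 0.17 and 0.20 in pairs 1 to 3, and over all genes tested it was 0.37 in pair 4 and 0.18 to 0.23 in the others. Without Epha1 the other 44 genes had 0.34 in pair 4, below the value of all genes. For 21 of the 45 genes the ratio of pair 4 lay farthest from 0, beside 44.6% of all genes. Slit2, Sema3e, Epha3 and Robo2 had their highest ratio in this pair, and Epha1 its lowest.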

How the data were processed

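RNA of whole kidneys at embryonic day 14.5 was compared on 8 two-colour arrays, as 4 pairs of mutant and wild-type RNA with dyes exchanged, per the labels. The authors' deposited scanner files hold median spot intensity and local background per channel, with flags. The deposited series matrix gives log10 ratios (Cy5 over Cy3), which differed from the scanner files by at most 0.005. Agilent Feature Extraction is given as 8.5.1.1 in the submitters' processing notes and as 10.7.3.1 per the file headers. Each array had 62976 spots, more than the format in the labels. Whether an RNA was of a single embryo or of several is not labelled, so p-values reflect the spread between these 4 pairs, technical or biological.

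Intensities were read into limma 3.58.1 (R 4.3.3). The plan assumed mean spot signals, and median signals took their place. Background was corrected by normexp (offset 50), followed by loess within arrays. Control spots (3671) and outlier spots (95 to 156 per array) had weight 0 and were left out. Ratios were turned to mutant over wild type, and both arrays of a pair were averaged. A probe was kept when well above background in at least 6 of 8 channels of a genotype, which left 34592 of 56605. Accessions in a RefSeq table (GRCm38.p6) named 58.3% of the probes. The brightest kept probe stood for its gene. Levels are log2 intensities per channel after loess and Aquantile, and differ between probes for reasons other than abundance. Ratios were tested against 0 with lmFit and eBayes, two-sided, with Benjamini-Hochberg adjustment over 16013 genes, and the steps were tested on simulated data. Each SE is the moderated standard error of this fit, not that of a gene's own pairs alone. All fits use the pairs, because both RNAs of a pair share an array. Only promoter coordinates are given, on GRCm38.p6, since the array design refers to another build.

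The genes, lists and naming rule were chosen with earlier results of these data known. Given singly were genes at an unadjusted p under 0.05, the 5 highest and 5 lowest means, members with a known kidney or p53 role, the 4 smallest p of the other pathway genes, and Mdm4. Alternatives changed the normalization, background correction, source table, filter, probe rule, dye handling, centring, a sex covariate and the pairs included.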

Additional observations from a re-analysis of the deposited data

Results flagged for a closer look

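Of 27 values examined for a sample far from the others of its group, 1 stood out, and chance gives about 1 in 20. The log2 ratio of Epha1, mutant over wild type, was -2.45 in pair 4, whereas it lay between -0.07 and 0.17 in the other 3 pairs. The gap to the nearest pair was 0.908 of the whole range. Both dye-swapped arrays of pair 4 gave it, at -2.58 and -2.33, and the level was low in the mutant channel (7.27, against 9.72 in its wild-type partner). Epha1 had 1 probe on the array, so that no second probe could be compared.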

How the results depend on the processing

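The count of genes called at an adjusted p of 0.05 was 42 with median centring in place of loess, 39 in a fit of all 8 arrays with a term for the dye and pairs as random blocks, and 0 in the other settings. No guidance gene was called in any setting. With median centring, which moved the median of all genes to 0.14, 19 guidance genes were higher and 0 lower in all 4 pairs, 18 had an unadjusted p under 0.05, and the median was 0.20 for them and 0.14 for the other pathway genes. Mutant RNA in Cy3 alone gave 13 higher, 6 lower, 17 at an unadjusted p under 0.05 and a median of 0.058, and mutant RNA in Cy5 alone gave 7 lower and 11 at that p. With the mean over the probes of a gene, 4 were higher in all pairs and the other pathway genes had a median of -0.0044. With 1 pair left out, 8 to 12 genes were higher and 3 to 5 lower in all pairs, 5 to 6 had an unadjusted p under 0.05, and the medians ran from 0.032 to 0.043 and, for the other pathway genes, from 0.014 to 0.044. An alternative added after the data were seen gave 3 to 6 genes higher on every array, beside 2.47% to 7.62% of all genes, and 0 to 2 lower, beside 0.125% to 5.37%. The 2 lower (Ephb2 and Unc5b) were found without pair 2, beside 2.4% of all genes.

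Of 25 genes given singly, 11 kept their sign in every setting run, among them Slit2, Sema3e, Epha3, Epha7 and Sema3f. The sign turned with median centring for Epha2 (0.12), Ephb2 (0.012), Unc5b (0.086), Sema3b (0.011), Plxnb1 (0.018) and Nrp2 (0.093). It turned with mutant RNA in Cy3 alone for Efnb2 (0.053), Epha2 (0.058), Plxnb2 (-0.12) and Sema4d (0.019), and in Cy5 alone for Epha4 (-0.25), Ntn1 (-0.13), Plxnd1 (-0.084) and Nrp2 (0.47). It turned for Nrp2 with the mean of its probes (0.10) and for Ntn1 with each pair centred (-0.0071) or with Y-linked transcripts as a covariate (-0.019). With that covariate the means were 0.30 for Slit2, 0.34 for Sema3e, 0.34 for Epha3 and 0.22 for Epha7. They were -0.15 for Epha1, -0.27 for Sema3f and -0.19 for Ephb2. With 1 pair left out, 8 genes changed sign, and their means ran from -0.84 to 0.037 for Epha1, from -0.11 to 0.033 for Epha2, from -0.047 to 0.11 for Epha4, from -0.068 to 0.047 for Ntn1, from -0.027 to 0.22 for Sema3c, from -0.014 to 0.081 for Plxnb2, from -0.00082 to 0.13 for Plxnd1 and from -0.16 to 0.060 for Nrp2. The causes were not tested. No paired analysis was possible beyond the main one, because each value already is a ratio within a pair. The limma adjusted p of Sema3e ran from 0.065 to 0.762 over the settings and that of Slit2 from 0.073 to 0.762. Dim probes such as that of Sema3e limit how well the size of a ratio is known.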
